A study of Homo sapiens with 6 samples.

Results

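Most DDX and DHX genes encode RNA helicases of superfamily 2, enzymes that spend ATP to open RNA duplexes or to strip proteins from RNA. Such genes, and the DNA helicase DDX11, were followed here in L428, a Hodgkin lymphoma line, after its miR-9 was inhibited. Members were all genes with a single platform symbol of the form DDX or DHX followed by a number and at most 1 letter, leaving out the RIG-I-like receptors DDX58 and DHX58 and the gene DDX3Y. The rule gave 49 of the 19775 genes named on the array, each read at the probe set brightest over all 6 arrays, and 45 of the 49 lay above the level filter and were tested. Both groups are L428 cells cultured in the same medium and nucleofected with a locked nucleic acid oligonucleotide (LNA), and both were harvested 9 h later: 3 samples received the miR-9 LNA inhibitor and 3 the scrambled LNA. No untransfected cells were analysed here, and a single cell line limits how far the comparison reaches. Total RNA was read on Affymetrix HG-U133 Plus 2.0 arrays, and values are log2 RMA signals as deposited. Differences are miR-9 LNA minus scrambled LNA on the log2 scale, errors of group means are SDs, errors of differences are limma standard errors, and n = 3 arrays per group throughout. No source used here says whether samples of a group are separate cultures, and p-values therefore reflect only the variation among these arrays, which may be technical.

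DEAD-box proteins (DDX) act on short duplexes and as clamps on RNA, whereas DEAH-box proteins (DHX) move along RNA and drive the late remodelling steps of the spliceosome. Many members have a fixed post: ribosome assembly in the nucleolus, successive spliceosome transitions, mRNA export, translation initiation, or the repression and decay of microRNA targets. The inhibitor blocks miR-9, whose 2 mature strands are shown as the molecules the treatment concerns, with the seed (bases 2 to 8 from the 5′ end) in capitals and sequences from RefSeq on GRCh38.p14.
hsa-miR-9-5p: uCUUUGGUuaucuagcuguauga
hsa-miR-9-3p: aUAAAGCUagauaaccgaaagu
No source used here says against which strand the LNA was designed.

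The arrays carried the profile of the line. All 6 Hodgkin markers on the fixed list, among them TNFRSF8 (CD30), IRF4 and CCL17, lay above the level filter, with levels between 9.19 and 12.83. The 4 T cell markers were all below it. Of B cell markers 2 of 4 were above it, at 7.28 to 7.58, as were 1 of 3 monocyte, 3 of 4 fibroblast, 2 of 3 endothelial and 1 of 1 erythroid markers, the brightest of these, COL1A1, at 7.99 to 8.23. The summed signals of each of these other lists overlapped between the groups. Array medians ran from 7.10 to 7.15. Scrambled replicate 1 stood apart: its 90th percentile was 9.28 against 9.45 to 9.57 on the other arrays, and the added bacterial control RNA dap read 10.36 there against 8.19 to 8.83. The 3′ minus 5′ signal of ACTB, a measure of RNA integrity and labelling, was 0.87 and 0.58 on the 2 arrays numbered 1 and 0.22 to 0.40 on the other 4.

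Helicase mRNAs lay slightly higher with the miR-9 LNA almost throughout the family, by a margin that bright genes of all kinds shared, and no member passed the test over all 6 arrays. Of the 45 tested members 43 had a positive difference (95.6%) against 70% of all 12367 tested genes, and the median was 0.16 against 0.083. The range ran from -0.088 for DHX34 to 0.38 for DDX46. Passing limma's adjusted p under 0.05 were 0 of 45 members and 0% of all genes, and the lowest adjusted p of a member was 0.296. At an unadjusted limma p under 0.05 there were 15 members higher (33.3%, background 17.4%) and 0 lower (background 0.598%). Every miR-9 LNA array exceeded every scrambled array for 19 members (42.2%, background 22%) and the reverse held for 0 (background 3.83%). For a member without overlap the two-sided exact permutation test gives p = 0.1, the smallest 3 against 3 arrays allow. When same-numbered arrays were blocked, limma gave 0 members past the threshold after adjustment. At an unadjusted p under 0.05 that limma fit gave 21 of 45 members higher and 0 lower. The backgrounds, over all genes and not split by level, were 25.9% and 0.784%. The block added 7 members at that p, DDX17, DDX3X, DDX42, DDX52, DHX15, DHX29 and DHX40, and lost 1, DDX54. In a blocked fit without both arrays numbered 1, chosen after the data were seen, limma gave 13 members higher (background 14.2%) and 2 lower (background 1.84%) at an adjusted p under 0.05, and 20 higher (background 25.1%) and 2 lower (background 3.33%) at an unadjusted p under 0.05. That fit holds 4 arrays and 1 residual degree of freedom, and limma used a single common variance for all probe sets there, so that its p-values carry no gene's own spread.

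**Figure D1:**
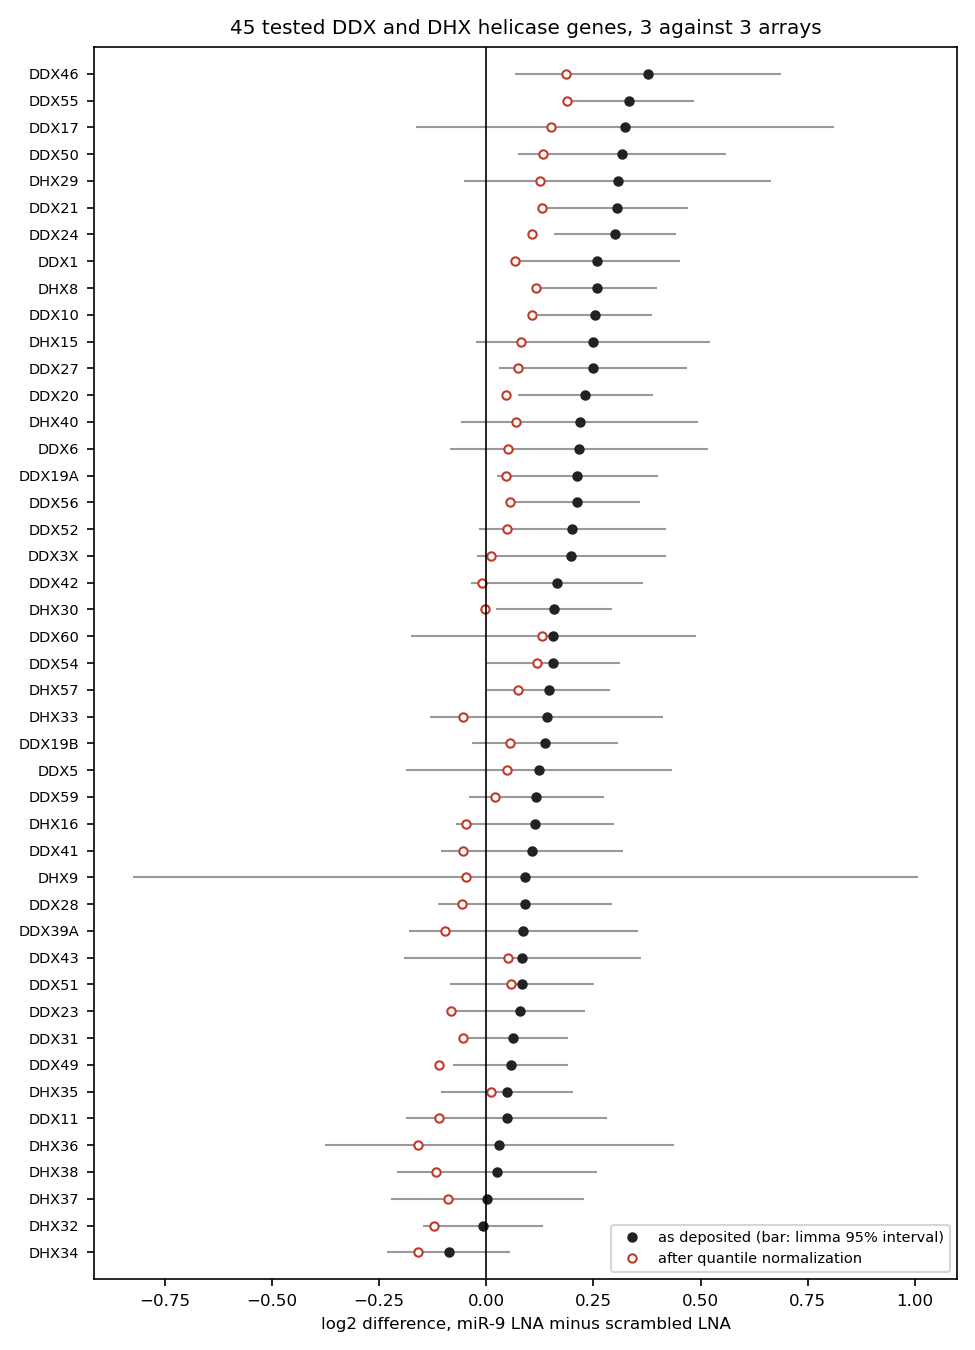
Log2 difference (horizontal axis, miR-9 LNA minus scrambled LNA) of each of the 45 tested DDX and DHX genes, with filled points for deposited values, bars for limma's 95% interval and open points for values after quantile normalization. Filled points lie right of 0 for 43 genes, from -0.088 (DHX34) to 0.38 (DDX46), and open points lie right of 0 for 28.

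The members are mostly bright, and the difference followed brightness. When the tested genes were split into 5 equal groups by level, 32 of the 45 members fell into the brightest 2. There all 32 were higher, as were 94.3% of all genes of those level groups. At an unadjusted limma p under 0.05 they numbered 13 of 32 (40.6%, background in those groups 33.2%), and 15 of 32 did not overlap (46.9%, background in those groups 36.9%). After the quantile normalization described next, 19 of these 32 were higher (59.4%, background in those groups 57.6%). The 13 dimmer members had a median of 0.084, with 11 higher. Set against the median gene of its own level group, 28 members lay above and 17 below. The shares among bright members were thus near those of other bright genes.

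**Figure D2:**
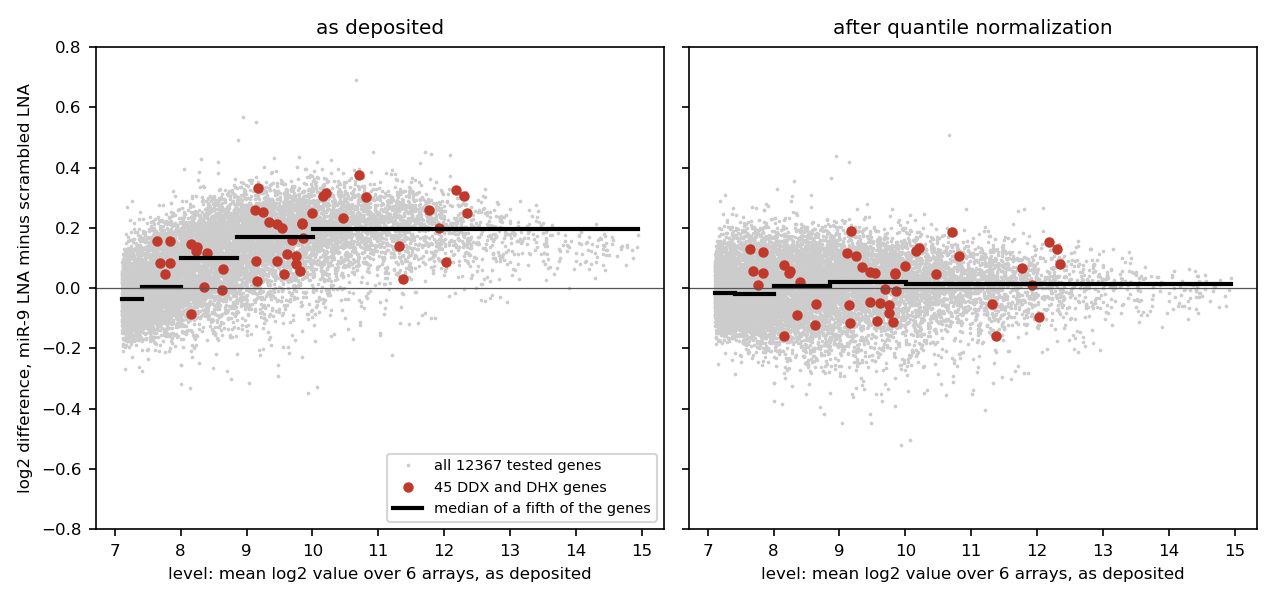
Log2 difference (vertical axis) against mean log2 level over the 6 arrays (horizontal axis) for all 12367 tested genes in grey and the 45 helicase genes in red, as deposited on the left and after quantile normalization on the right. Black bars give the median of each of 5 equal level groups, which climbs from -0.035 to 0.20 on the left and stays between -0.020 and 0.021 on the right.

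After quantile normalization, which gives every array the same distribution of values, the members divided. Of the 45 tested, 28 were higher (62.2%, background 49.6%) and 17 lower, with a median of 0.049 against -0.00083 for all genes. Then 0 members had an unadjusted limma p under 0.05 in either direction (background 1.88% higher and 2.34% lower). Arrays did not overlap for 6 in the higher direction (13.3%, background 5.4%), namely DDX1, DDX10, DDX24, DDX54, DHX8 and DHX57. In the lower direction they did not overlap for 2 (4.44%, background 6.4%), DHX32 and DHX34. These counts use brightest probe sets. Other tested probe sets, so normalized, gave -0.30 for DDX24, -0.095 and -0.049 for DDX54, -0.0018 for DHX8 and 0.038 for DHX34. DDX1, DDX10, DHX57 and DHX32 had no other tested probe set. DDX members were higher in 30 of 30 cases as deposited and in 22 of 30 after quantile normalization, and DHX members in 13 of 15 and 6 of 15. The difference between DDX and DHX members was not tested.

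Much of the spread lay on scrambled replicate 1. It was the lowest of the 6 arrays for 25 of 45 members, against 41.5% of all tested genes. A member's median position relative to its own mean over the arrays was -0.16 on that array, -0.032 on both other scrambled arrays and 0.055, 0.073 and 0.11 on miR-9 LNA replicates 1, 2 and 3. For all genes of the 2 brightest level groups the positions were -0.20, -0.035 and -0.028 on the scrambled arrays and 0.14, 0.056 and 0.074 on the miR-9 LNA arrays. Without scrambled replicate 1 the median difference was 0.11, 37 of 45 members were higher (82.2%, background 70%) and 10 had an unadjusted limma p under 0.05 in the higher direction (background 12.9%). The member in the lower direction at that p was 1, against 0 with all arrays (background 1.16%). What part these array-level differences have in the members' values was not tested.

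**Figure D3:**
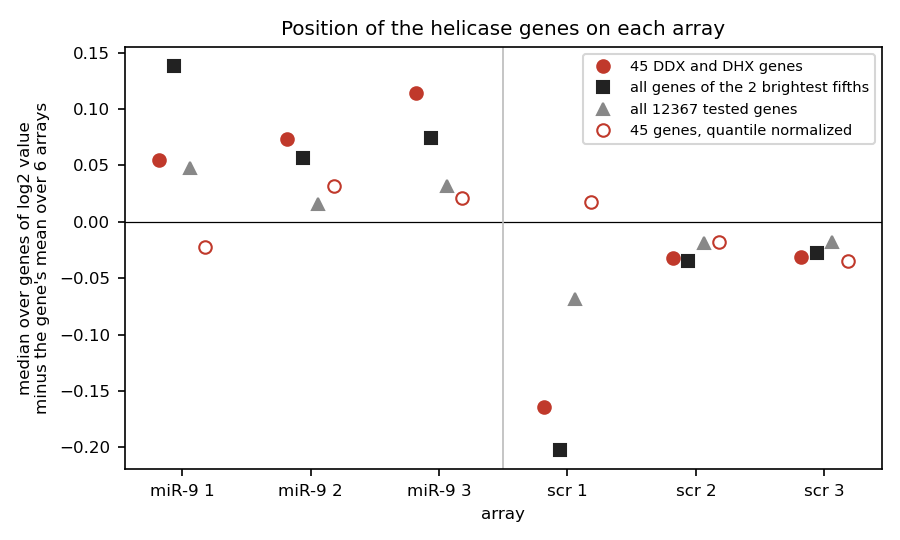
Median over genes of the log2 value minus that gene's own mean over 6 arrays (vertical axis), for each array (horizontal axis). Filled red circles are the 45 helicase genes, black squares all genes of the 2 brightest level groups, grey triangles all 12367 tested genes and open circles the helicase genes after quantile normalization. Scrambled replicate 1 lies lowest, at -0.16 for the helicases and -0.20 for the bright genes, and at 0.018 for the helicases after quantile normalization.

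Ribosome biogenesis helicases, which remodel pre-ribosomal RNA in the nucleolus, form the role with the most tested members. All 14 tested of 16 listed had positive differences, from 0.0028 (DHX37) to 0.33 (DDX55), with a median of 0.21. At an unadjusted limma p under 0.05 were 8 of the 14 (57.1%, against 17.4% of all genes and 33.2% of those in the 2 brightest level groups), and the arrays did not overlap for 10 (71.4%, against 22% and 36.9%). With same-numbered arrays blocked 8 of the 14 were again at that p (background 25.9% of all genes, not split by level). After quantile normalization 10 of the 14 were higher (71.4%, against 49.6% of all genes and 57.6% of those in the 2 brightest level groups), with a median of 0.065. Then 3 did not overlap (21.4%, background 5.4%), DDX10, DDX24 and DDX54, of which DDX24 and DDX54 were lower at other tested probe sets. Without scrambled replicate 1 the median was 0.14. Whether this role differs from the other members was not tested. Other listed members, DDX18 and DDX47, had no probe set with that single symbol and were not analysed here.

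DDX55, a helicase of large-subunit assembly, had the smallest p of the family among brightest probe sets. Its arrays read 9.31, 9.37 and 9.35 with the miR-9 LNA and 9.11, 8.95 and 8.97 with the scrambled LNA, for replicates 1 to 3. All 3 miR-9 LNA values lay above all 3 scrambled values, and here scrambled replicate 1 was the highest of its group. The difference was 0.33 ± 0.065 (95% interval 0.18 to 0.49, limma adjusted p = 0.296), and 0.19 after quantile normalization. A second probe set of DHX33, 226262_at, had a smaller unadjusted limma p (0.00032 against 0.0011 for DDX55).

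DDX24, a nucleolar helicase also linked to p53 regulation, read 11.00, 10.95 and 10.94 against 10.59, 10.71 and 10.69. The 2 groups were clearly apart at this probe set, with a difference of 0.30 ± 0.061 (limma adjusted p = 0.296). A second DDX24 probe set, 200702_s_at, gave -0.16, so the probe sets disagreed in sign. DDX10, needed for small-subunit assembly, read 9.41, 9.36 and 9.39 against 9.09, 9.16 and 9.14, which is a tight separation around a difference of 0.25 ± 0.057. DDX56, a nucleolar helicase of the large subunit, read 9.52, 9.55 and 9.62 against 9.36, 9.29 and 9.40, without overlap, and differed by 0.21 ± 0.063.

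DDX21 and DDX50 are paralogs that sit next to each other on chromosome 10 and encode nucleolar helicases, and DDX21 also couples ribosomal RNA transcription to processing. DDX21 read 12.45, 12.40 and 12.50 with the miR-9 LNA and 12.05, 12.25 and 12.14 with the scrambled LNA. Its difference was 0.30 ± 0.071 (95% interval 0.14 to 0.47, limma adjusted p = 0.296), and its second probe set, 208152_s_at, gave 0.23. DDX50 read 10.61, 10.29 and 10.22 against 10.03, 10.10 and 10.03. Neither gene overlapped between the groups, and the DDX50 SD was larger with the inhibitor (0.21 against 0.044), with replicate 1 highest. The DDX50 difference was 0.32 ± 0.10 with all arrays and 0.20 without miR-9 LNA replicate 1.

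Among the other ribosome biogenesis members the differences were 0.25 for DDX27, 0.20 for DDX52 and 0.16 for DDX54, all without overlap between groups. Without scrambled replicate 1 those of DDX27 and DDX52 were 0.16 and 0.10. The other tested DDX54 probe sets disagreed in sign, with -0.067 at 225428_s_at and -0.039 at 224433_s_at. DDX31, also without overlap, differed by 0.063. DHX33 differed by 0.14 at its brightest probe set, where scrambled replicate 1 read 10.96 and the other 5 arrays 11.35 to 11.41, and by 0.34 at 226262_at. Without that scrambled array the difference at the brightest probe set was 9.9e-05. DDX51, DDX49 and DHX37 differed by 0.084, 0.057 and 0.0028, with overlapping groups. After quantile normalization DDX31, DDX49, DHX33 and DHX37 were lower with the miR-9 LNA at their brightest probe sets, at -0.054, -0.11, -0.054 and -0.089. There 226262_at of DHX33 stayed higher at 0.19 and 235436_at of DDX31 at 0.15. Other tested probe sets of these genes were lower.

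**Figure D4:**
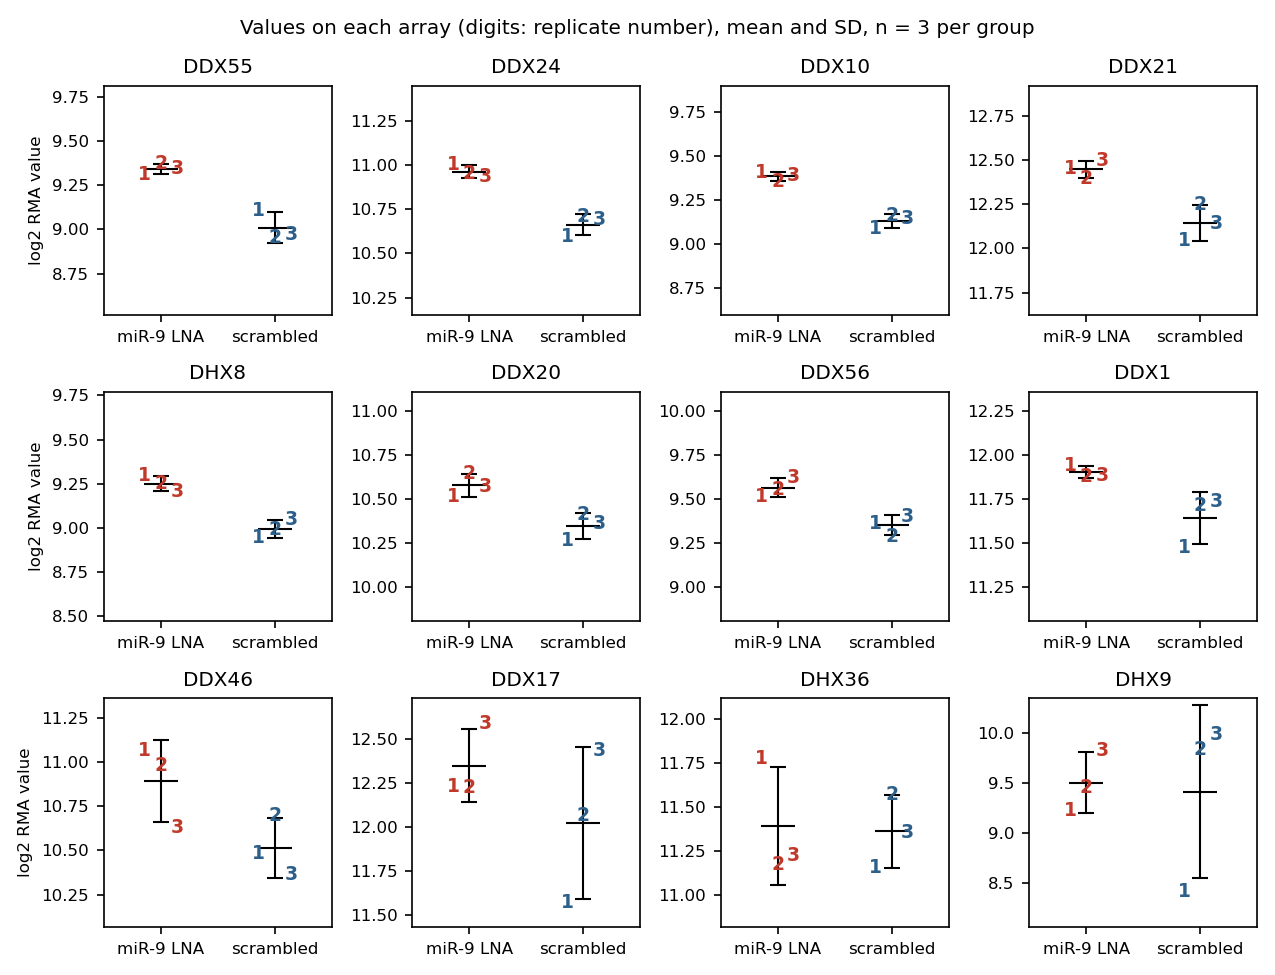
Log2 RMA value (vertical axis) on each array, with the digit giving the replicate number, the long bar the group mean and the whisker the SD (n = 3), for the 8 genes of smallest p and for DDX46, DDX17, DHX36 and DHX9. Panels share 1 span except DHX9, whose axis is wider. The first 8 panels show groups that do not overlap, and the last 4 show groups that do, with DHX9 at 8.41 on scrambled replicate 1.

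The splicing helicases act in order on the spliceosome, from DDX46 and DDX23 at its assembly to DHX16, DHX38, DHX8 and DHX15 at catalysis, mRNA release and disassembly. All 11 tested of 12 listed had positive differences, with a median of 0.12, and 2 had an unadjusted limma p under 0.05 (18.2%, background 17.4%). With same-numbered arrays blocked 5 did (background 25.9% of all genes, not split by level): DDX17, DDX42, DDX46, DHX15 and DHX8. After quantile normalization 6 of the 11 were higher, with a median of 0.011. The listed DDX39B had only probe sets shared with other symbols and was not analysed here.

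DHX8, which releases the spliced mRNA, read 9.30, 9.25 and 9.21 with the miR-9 LNA and 8.94, 8.99 and 9.05 with the scrambled LNA. The groups did not overlap at this probe set, also not after quantile normalization, and the difference was 0.26 ± 0.061 (95% interval 0.12 to 0.40, limma adjusted p = 0.296). Its other tested probe set, 227079_at, gave 0.059 as deposited and -0.0018 after quantile normalization. DDX46, which acts when U2 snRNP joins the branch point, had the largest difference of the family and is described in full for that reason, chosen after the values were seen. It read 11.07, 10.98 and 10.63 against 10.48, 10.70 and 10.36, so that miR-9 LNA replicate 3 fell below scrambled replicate 2. The difference was 0.38 ± 0.13 (limma adjusted p = 0.306), higher with the inhibitor in 3 of 3 same-numbered pairs. It was 0.19 after quantile normalization, and the other tested DDX46 probe set, 228039_at, gave 0.17 as deposited.

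DHX15, the disassembly helicase that also serves ribosome biogenesis, was the brightest of the splicing members. It read 12.48, 12.41 and 12.51 against 11.94, 12.33 and 12.39, without overlap and with scrambled replicate 1 far below the rest. The difference was 0.25 ± 0.12 with all arrays and 0.11 without that array. DHX38 and DHX16, which act at the catalytic stage, differed by 0.024 and 0.11. DDX23 and DDX41 differed by 0.079 and 0.11, DDX42 by 0.16 and DHX35 by 0.048. After quantile normalization DHX38, DHX16, DDX23, DDX41 and DDX42 were lower, at -0.12, -0.048, -0.083, -0.055 and -0.011.

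DDX5 and DDX17 are close paralogs that work in splicing, in transcription and with the Drosha complex that cuts primary microRNAs. DDX17 read 12.23, 12.22 and 12.59 with the miR-9 LNA and 11.57, 12.07 and 12.43 with the scrambled LNA. The groups overlapped, and replicate 3 was high and replicate 1 low among the scrambled arrays. The difference was 0.32 ± 0.21 (95% interval -0.16 to 0.81, limma adjusted p = 0.483), while the other 4 DDX17 probe sets gave -0.079 to 0.033. Without scrambled replicate 1 it was 0.099, and with same-numbered arrays blocked its unadjusted limma p was 0.026. DDX5 was read here only by 225886_at, because the brighter probe set carries several symbols. It read 8.14, 8.18 and 8.55 against 7.97, 8.20 and 8.33, with overlap, and differed by 0.12 ± 0.13. Both paralogs were highest on miR-9 LNA replicate 3.

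DDX20 (Gemin3), a partner of the SMN complex and of microRNA ribonucleoproteins, was the microRNA pathway member with the smallest p. It read 10.52, 10.65 and 10.57 against 10.27, 10.41 and 10.36. No values overlapped, the difference was 0.23 ± 0.067 (limma adjusted p = 0.296), and it was 0.046 after quantile normalization. DDX6, which represses microRNA targets and promotes decapping in P-bodies, read 9.82, 10.08 and 9.97 against 9.57, 9.64 and 10.02. Scrambled replicate 3 lay within the range of the miR-9 LNA arrays, and the difference of 0.22 ± 0.13 did not pass the test (limma adjusted p = 0.454). It was 0.13 without scrambled replicate 1, 0.36 without scrambled replicate 3 and 0.050 after quantile normalization. Other tested DDX6 probe sets gave 0.23 (1562836_at) and -0.072 (204909_at) as deposited, so the probe sets disagreed in sign.

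DHX9, which helps to load small RNAs and also senses nucleic acids, varied most of all members. Its brightest probe set read 9.23, 9.46 and 9.83 with the miR-9 LNA and 8.41, 9.83 and 9.99 with the scrambled LNA. The difference was 0.091 ± 0.39 (95% interval -0.82 to 1.01), and -0.41 without scrambled replicate 1. Its other probe sets above the filter, 202420_s_at and 212105_s_at, gave 0.19 and 0.0061. All 5 tested microRNA pathway members were higher as deposited, with a median of 0.22, and 4 of the 5 after quantile normalization, with a median of 0.049. Without scrambled replicate 1 the median was 0.099.

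**Figure D5:**
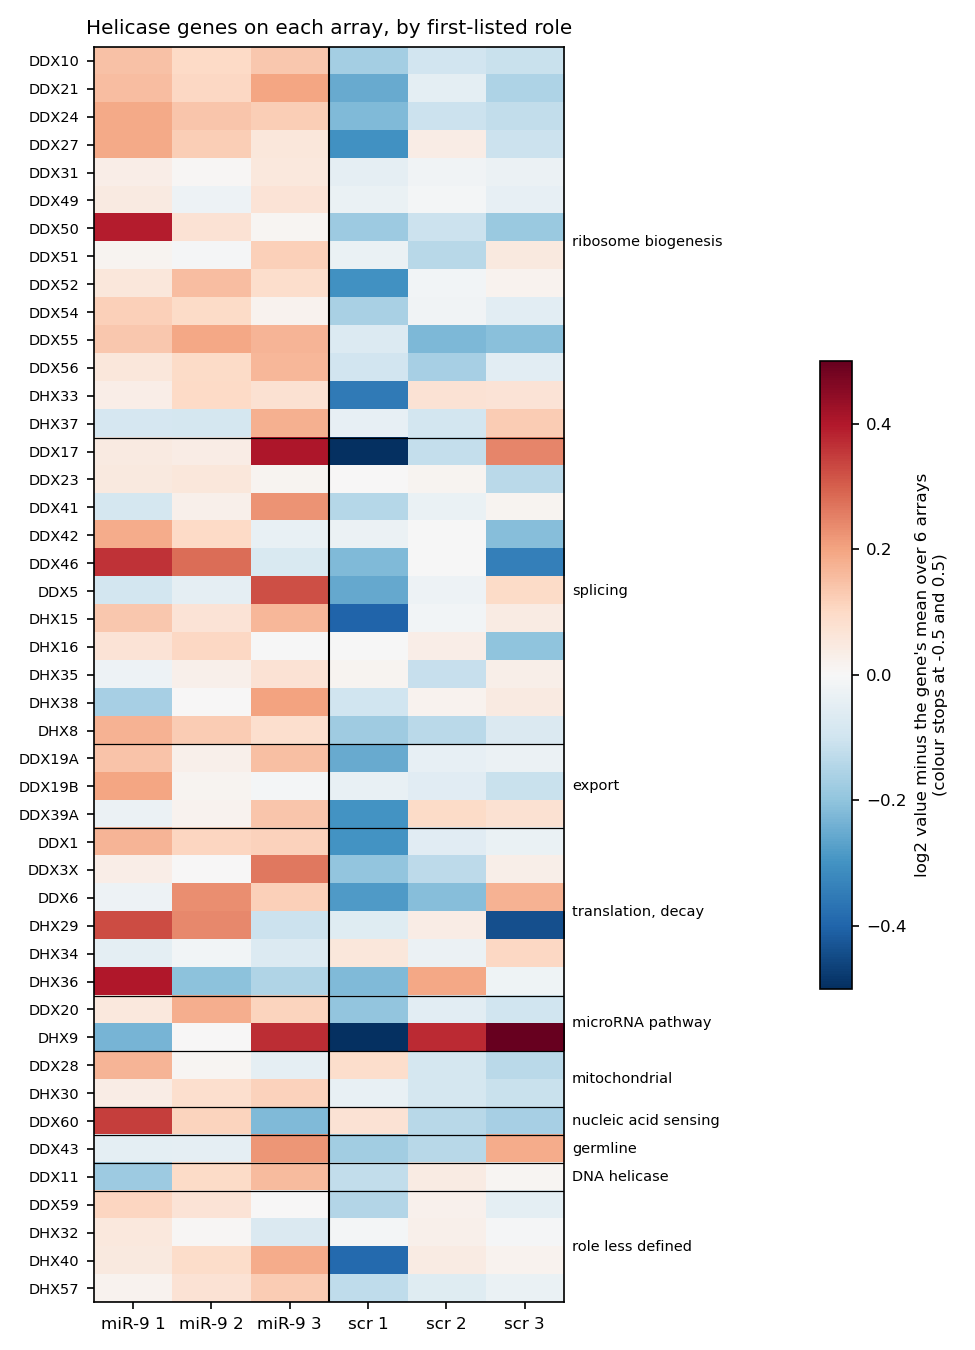
Log2 value minus the gene's mean over 6 arrays, in colour from -0.5 (blue) to 0.5 (red), for the 45 tested helicase genes (rows, by first-listed role) on each array (columns, miR-9 LNA replicates 1 to 3 left of the line and scrambled replicates 1 to 3 right of it). The scrambled replicate 1 column holds the lowest value of 25 genes, and DHX9 and DDX17 exceed the colour range there.

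The translation and decay group holds DDX1 of the tRNA ligase complex, DDX3X and DHX29, which help ribosomes scan structured leaders, DDX6, DHX34 of nonsense-mediated decay and DHX36, which opens G-quadruplexes and binds AU-rich mRNA. Of the 6 tested 5 were higher as deposited and 4 after quantile normalization. DDX1 read 11.94, 11.88 and 11.88 against 11.47, 11.71 and 11.74. It did not overlap, under either normalization, and differed by 0.26 ± 0.083 (limma adjusted p = 0.296). DDX3X read 11.96, 11.93 and 12.19 against 11.73, 11.80 and 11.96, so that scrambled replicate 3 lay above miR-9 LNA replicate 2. The DDX3X difference was 0.20 ± 0.094 (limma adjusted p = 0.379), and its 3 other tested probe sets gave 0.12 to 0.23. Without miR-9 LNA replicate 3 the difference was 0.12. DHX29 differed by 0.31 ± 0.15, and by 0.16 without scrambled replicate 3.

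DHX36 had interleaved groups at its brightest probe set. It read 11.78, 11.17 and 11.23 against 11.16, 11.57 and 11.36, with overlap, and is given in full after its values were seen. The difference was 0.030 ± 0.17, whereas probe set 223140_s_at gave 0.28 and 223138_s_at 0.15. DHX34 and DHX32 were the tested members with a negative difference. DHX34 read 8.11, 8.15 and 8.09 with the miR-9 LNA and 8.22, 8.13 and 8.26 with the scrambled LNA, overlapping through scrambled replicate 2. Its difference was -0.088 ± 0.061 (limma adjusted p = 0.513). The other tested DHX34 probe set, 204815_s_at, gave 0.017, so the probe sets disagreed in sign. DHX32, whose role is less defined, read 8.69, 8.64 and 8.56 against 8.62, 8.66 and 8.63 and differed by -0.0079 ± 0.060, with the groups interleaved.

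The export helicases DDX19A, DDX19B and DDX39A strip proteins from mRNA at the nuclear pore or load export factors. DDX19A read 9.98, 9.86 and 9.99 against 9.59, 9.80 and 9.81, without overlap, for a difference of 0.21 ± 0.080 that was 0.14 without scrambled replicate 1, and its probe set 202577_s_at gave 0.24. Its near-identical paralog DDX19B read 8.45, 8.27 and 8.24 against 8.21, 8.20 and 8.14, also without overlap, for 0.14 ± 0.073, and 0.072 without miR-9 LNA replicate 1. The 2 sequences are so alike that signal shared between them cannot be told apart here. DDX39A read 12.00, 12.05 and 12.17 against 11.73, 12.13 and 12.11. Only scrambled replicate 1 lay outside the miR-9 LNA range, and the difference was 0.086 ± 0.11 with all arrays and -0.043 without that one.

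The remaining roles hold 1 to 4 tested members each. DHX30, which supports mitochondrial ribosome assembly, read 9.73, 9.78 and 9.81 against 9.65, 9.60 and 9.58, without overlap, and differed by 0.16 ± 0.058 as deposited and by -0.0020 after quantile normalization. The other mitochondrial member, DDX28, differed by 0.090. DHX40, less defined, read 9.39, 9.43 and 9.53 against 8.95, 9.38 and 9.36, a difference of 0.22 ± 0.12 that was 0.079 without scrambled replicate 1. DHX57 and DDX59 differed by 0.15 and 0.12, and the interferon-induced DDX60 by 0.16 ± 0.14, which was 0.023 without miR-9 LNA replicate 1. DDX11, a DNA helicase of sister chromatid cohesion, read 9.39, 9.67 and 9.73 against 9.45, 9.62 and 9.58, a difference of 0.047 ± 0.10. Its probe set may also read the near-identical DDX12P, and the other 3 DDX11 probe sets gave -0.040 to 0.0040.

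Germline helicases were dim in this lymphoma line. DDX43 (HAGE), a cancer-testis antigen, read 7.79, 7.80 and 8.06 against 7.67, 7.70 and 8.03, with replicate 3 highest in both groups and a difference of 0.084 ± 0.12. DDX4 (VASA), DDX25 and DDX53 lay below the filter of 7.11, with array values between 6.33 and 6.86, as did DDX60L at 6.69 to 6.87. DDX25 read 6.63, 6.69 and 6.61 against 6.81, 6.72 and 6.73. These values lie near the floor of the array, and the differences of the 4 untested members, between -0.11 and 0.056, received no adjusted p.

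A member's other probe sets gave a looser picture than the brightest one. Of 116 member probe sets, 50 were tested besides the brightest, and 34 of the 50 had the same sign as the brightest probe set of their gene. At an unadjusted limma p under 0.05 were 5 of the 50, all higher, against 11.8% of all tested probe sets of named genes other than the brightest: 226262_at of DHX33, 223140_s_at of DHX36, 210320_s_at of DDX52, 202577_s_at of DDX19A and 221780_s_at of DDX27. With the mean over all probe sets of each gene the members' median was 0.091.

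Helicases of other names and cofactors that bind helicases were read in the same way, and differences between these lists and the members were not tested. Of 12 tested other RNA helicases 9 were higher (75%, background 70%), with a median of 0.15, and 4 had an unadjusted limma p under 0.05 in the higher direction (33.3%, background 17.4%). Those of smallest p were MTREX, the nuclear exosome helicase, at 0.39 ± 0.08, ASCC3, which resolves stalled ribosomes, at 0.28 ± 0.06, and AQR of the spliceosome at 0.21 ± 0.06. Among cofactors with MIF4G or related domains, which bind DEAD-box proteins such as EIF4A and DDX6, 8 of 9 tested were higher (88.9%), with a median of 0.19. The DDX6 activator CNOT1 differed by 0.32 ± 0.08, UPF2 by 0.30 ± 0.08 and CWC22 by 0.21 ± 0.07. Of G-patch proteins, which activate DEAH-box helicases such as DHX15, 17 of 19 tested were higher (89.5%), with a median of 0.13, led by p by SON (0.28 ± 0.08), RBM5 (0.32 ± 0.11) and GPATCH8 (0.16 ± 0.06). Each of these 3 lists had 0 genes at a limma adjusted p under 0.05. After quantile normalization their higher counts were 6 of 12, 6 of 9 and 12 of 19 (background 49.6%).

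Promoters of 46 of the 49 members could be matched in RefSeq (GRCh38.p14), and 3 short motifs, chosen after the data were seen, were counted on both strands in the 250 bases before each start. The ETS core CCGGAAG (reverse CTTCCGG) was in 14 of 42 promoters of tested members (33.3%), in 15.8% of 9972 promoters of tested genes and in 8.82% of all 27305 promoters. The E-box CACGTG, its own reverse complement, was in 7 of 42 (16.7%), against 8.98% of tested genes. The TATA box TATAAA (reverse TTTATA) was in 1 of 42 (2.38%), against 5.69%. These backgrounds were not matched for expression level or GC content. The median GC content was 61% for member promoters and 58% for all promoters. A promoter with several matches counted once, and a match describes letters in this window and no binding. The last 100 bases before the start are shown for the neighbouring paralogs DDX21 and DDX50 and for DDX46 and DHX8, the splicing members at an unadjusted p under 0.05 without the block, also chosen after the data were seen, with the ETS core in capitals.
DDX21, chr10:68956070-68956169, plus strand: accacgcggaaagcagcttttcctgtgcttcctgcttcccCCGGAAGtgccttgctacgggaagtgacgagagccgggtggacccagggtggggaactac
DDX50, chr10:68901215-68901314, plus strand: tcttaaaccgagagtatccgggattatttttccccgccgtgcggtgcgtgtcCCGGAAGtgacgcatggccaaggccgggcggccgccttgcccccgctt
DDX46, chr5:134758679-134758778, plus strand: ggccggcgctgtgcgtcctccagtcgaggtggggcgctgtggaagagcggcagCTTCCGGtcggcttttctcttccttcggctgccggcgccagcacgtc
DHX8, chr17:43483875-43483974, plus strand: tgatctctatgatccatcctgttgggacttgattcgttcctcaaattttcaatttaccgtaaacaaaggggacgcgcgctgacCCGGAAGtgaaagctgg
The core lies 60 bases before the start in DDX21, 48 in DDX50, 47 in DDX46 (as the reverse letters) and 17 in DHX8, counted from its first letter. DDX55, DDX24, DDX10 and DDX20, 4 of the 8 members of smallest p, have no such core in the window.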

How the data were processed

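Log2 expression of L428 cells was read on 6 arrays, 3 per group. The submitters' processing notes name affy and RMA, without versions, as the source of the log2 values the authors deposited. Array minima ran from 5.97 to 6.08, high for RMA, and no source says whether an offset was added; such an offset would shrink differences of dim genes. The small number of arrays sets the precision.

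From these, 62 control probe sets of 54675 were left out, and the 27307 with a mean at or above the median of the rest (7.11) were tested with limma 3.58.1 in R 4.3.3 (lmFit, eBayes, two-sided, Benjamini-Hochberg over all tested probe sets, threshold 0.05). Members below that level were read from a fit without the filter. Gene counts and backgrounds use the brightest probe set of each of 12367 tested genes. The platform annotation gave 1 symbol to 41091 probe sets, several to 1801 and none to 11721, and only the first were named. Single values were compared by exact permutation over arrays.

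The members, role lists and markers were chosen with earlier results of these data known. Full values were given, by rule, for the 8 members of smallest p in the higher direction, up to 4 in the lower (only 2 existed), the brightest of each role and 4 paralog pairs, of which DDX39B was not analysed here. DDX46, DHX36, DDX6 and the untested DDX25 fall outside this rule and were chosen after their values were seen. Of the other lists the 3 genes of smallest p were named.

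Same-numbered arrays deviated together from their group means (r = 0.231, 0.193 and 0.634 across probe sets), which is where the pairing rests. Differently numbered arrays gave -0.429 to 0.168, the highest of these for miR-9 LNA replicate 1 with scrambled replicate 2, close to the lowest same-numbered value. The reverse crossing, miR-9 LNA replicate 2 with scrambled replicate 1, gave 0.077, so the pairing is clear only for replicate 3. Deviations from a group mean cancel within the group, so negative values between differently numbered arrays are partly arithmetic. Other settings were the level filter, quantile normalization, median centring, a trended robust variance, array weights, the replicate block, a mean over probe sets and omission of 1 array at a time, and, chosen after seeing the data, the block without both arrays numbered 1. The limma script was tested on simulated data. Figures used matplotlib 3.10.9 in Python 3.11.15.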

Additional observations from a re-analysis of the deposited data

How the results depend on the processing

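One alternative, the replicate block without replicate pair 1, chosen after seeing the data, gave 15 members at a limma adjusted p under 0.05, 13 higher and 2 lower (DHX36 -0.26 and DHX9 -0.27), with 20 higher and 2 lower at an unadjusted p under 0.05, a median of 0.11 and 40 of 45 higher, and it turned DDX39A (-0.0074). It leaves 4 arrays with 1 residual degree of freedom and a variance common to all probe sets, and 14.2% and 1.84% of all genes passed there, higher and lower. Under every other alternative run 0 members passed. With the replicate number as a block, pairing same-numbered arrays, limma gave 21 members higher at an unadjusted p under 0.05 and 0 lower. The backgrounds were 25.9% and 0.784% of all genes, not split by level. Without the block 15 members were higher at that p and 0 lower. After adjustment in the blocked fit 0 passed (lowest limma adjusted p 0.159). At an unadjusted p under 0.05 the block added 7 members and lost 1. Leaving out each array, the members higher at an unadjusted p under 0.05 ranged from 10 to 15, those lower from 0 to 1, the median from 0.11 to 0.18 and the members higher from 37 to 43. Quantile normalization, alone or with the replicate block, moved the median to 0.049 and the members higher to 28. At an unadjusted limma p under 0.05 it left 0 higher alone (background 1.88%), and 3 higher and 1 lower with the block. The share over all genes was not computed for quantile normalization with the block. Among single-array omissions it was computed only without scrambled replicate 1 (12.9% higher, 1.16% lower). Counts without that share show nothing particular to the members. With the mean of all probe sets the median was 0.091.

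Quantile normalization, with or without the block, turned 15 members lower: DDX11 -0.11, DDX23 -0.083, DDX28 -0.056, DDX31 -0.054, DDX39A -0.097, DDX41 -0.055, DDX42 -0.011, DDX49 -0.11, DHX16 -0.048, DHX30 -0.0020, DHX33 -0.054, DHX36 -0.16, DHX37 -0.089, DHX38 -0.12 and DHX9 -0.046. Array weights turned DDX39A (-0.024), DHX36 (-0.18) and DHX9 (-0.27). The mean of all probe sets turned DDX11 (-0.0021), DDX51 (-0.014) and DHX37 (-0.028), and median centring DHX32 (0.019). Leaving out 1 array moved 32 of 45 members by over 1.5 times or turned them, and turned 9: DDX11 ranged from -0.021 to 0.15, DDX39A from -0.043 to 0.16, DDX43 from -0.0041 to 0.20, DDX5 from -0.0079 to 0.20, DHX32 from -0.037 to 0.026, DHX36 from -0.16 to 0.14, DHX37 from -0.084 to 0.068, DHX38 from -0.070 to 0.11 and DHX9 from -0.41 to 0.38. The cause of these turns was not tested. Signal over background limits the 4 members below the filter.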
